A study of Mus musculus with 6 samples.

Results

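Chemokines are small secreted proteins that attract leukocytes, and the data described here are the mRNA levels of their genes and of the genes for their receptors in the stomach of mice given a glucocorticoid. The set was a list of 37 gene symbols, 28 ligands and 9 receptors, matched to probe sets through the array's gene annotation. Of these, 35 were measured, 26 ligands and 9 receptors, among 19919 genes on the array, while Ccl19 and Ccl28 were not analysed here. RNA came from the gastric corpus, where the acid-making glands lie, of Balb/c wildtype females that were 8 to 12 weeks of age. For 3 samples the drinking water held 50 mg of the glucocorticoid dexamethasone per litre for 3 days, and for 3 control samples the mice were untreated. The samples of a group are labelled as biological replicates. Whether 1 sample is 1 mouse or a pool is not said, so the p-values measure only how far these samples spread.

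Chemokines are named for the spacing of their first cysteines, as CC, CXC, C and CX3C ligands, and they act on receptors coupled to G proteins of the Gi class. Inflammatory chemokines are induced in tissue cells and macrophages and draw in neutrophils, monocytes, eosinophils or effector T cells, while homeostatic ones place lymphocytes within lymphoid tissue and mucosa. Glucocorticoids are known to dampen many inflammatory genes, in part by restraining the transcription factors of the NF-kappa B family. The gastric corpus normally holds resident macrophages, dendritic cells, mast cells and scattered plasma cells that make immunoglobulin A.

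All values below are log2 expression, and a change is the mean of the dexamethasone samples minus the mean of the controls on that scale. Across all genes, 1.84% passed an adjusted p of 0.05 in limma, a moderated linear model run over all 19919 genes. Of 8 genes known to respond to glucocorticoids or to bind them, 1 rose, 1 fell and 6 did not pass. Fkbp5, a glucocorticoid-induced co-chaperone, was at 10.26, 10.89 and 11.25 in the dexamethasone samples, against 9.26, 8.62 and 8.88 in the controls (log2 change 1.88, limma adjusted p = 0.0151). It did not pass without dexamethasone replicate 2 or control replicates 2 or 3 (adjusted p = 0.0883, 0.0503 and 0.0957). Nr3c2, the mineralocorticoid receptor, fell (log2 change -0.58, limma adjusted p = 0.00550). The induced genes Tsc22d3, Per1 and Dusp1 overlapped between the groups (adjusted p = 0.591, 0.770 and 0.645). Zbtb16 was higher without overlap (log2 change 0.75, limma adjusted p = 0.120) and Sgk1 higher with overlap (0.64, adjusted p = 0.278). Sgk1 passed without control replicate 1 (adjusted p = 0.0113), which was the highest control for Tsc22d3, Per1, Dusp1 and Sgk1. Nr3c1 was lower without overlap (-0.16, adjusted p = 0.247). The genes of the acid pump and of pepsinogen C, which mark the corpus, were among the brightest on every array (Atp4a 13.78 to 13.89, Pgc 14.22 to 14.32). Of 11 measured corpus markers, 1 rose, Chga of endocrine cells (log2 change 0.82, limma adjusted p = 0.00240), and 10 did not pass. At an unadjusted p under 0.05, 1 was higher and 2 lower, Tff2 (-0.61, adjusted p = 0.130) and Muc5ac (-0.29, adjusted p = 0.190), both without overlap. Muc6 was lower with overlap (-0.81, adjusted p = 0.390). Without dexamethasone replicate 3, Muc5ac and Muc6 passed (adjusted p = 0.0386 and 0.00445). The 17 measured genes of squamous cells, which line the forestomach next to the corpus, averaged 10.01, 10.02 and 8.31 in dexamethasone replicates 1 to 3, against 8.18, 9.80 and 8.30 in control replicates 1 to 3. Dexamethasone replicates 1 and 2 and control replicate 2 were thus high in squamous markers and the other 3 arrays low. Of the 17, 1 rose, Krt6a (log2 change 0.61, limma adjusted p = 0.0362), though not without dexamethasone replicates 1 or 2 or control replicates 1 or 3 (adjusted p = 0.118, 0.168, 0.0550 and 0.189). At an unadjusted p under 0.05, 3 of the 17 were higher and 0 lower. Besides Krt6a these were Krt5 (1.75, adjusted p = 0.270) and Krt14 (1.08, adjusted p = 0.246), both with overlap. The median change of the squamous list was 0.60.

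Dexamethasone was accompanied by a change in 4 of the 35 chemokine genes (11.4%, against 1.84% of all genes). Cxcl13, Ccl6 and Ccl9 rose and Cxcl10 fell, which is 8.57% of the members higher against 0.798% of all genes and 2.86% lower against 1.04%. All 4 encode ligands. None of the 9 receptor genes passed in limma, and 2 of the 9, Ccr1 and Cxcr4, had an unadjusted p under 0.05, both with lower values. At that unadjusted threshold stood 11 of the 35 members, 6 higher and 5 lower (31.4%, against 13.1% of all genes, of which 5.97% higher and 7.14% lower). The 2 groups of samples did not overlap in 15 members, 8 higher and 7 lower (42.9%, against 18.3% of all genes, of which 8.84% higher and 9.46% lower). The median change over the 35 members was 0.0015, beside 0.0023 over all genes.

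**Figure D1:**
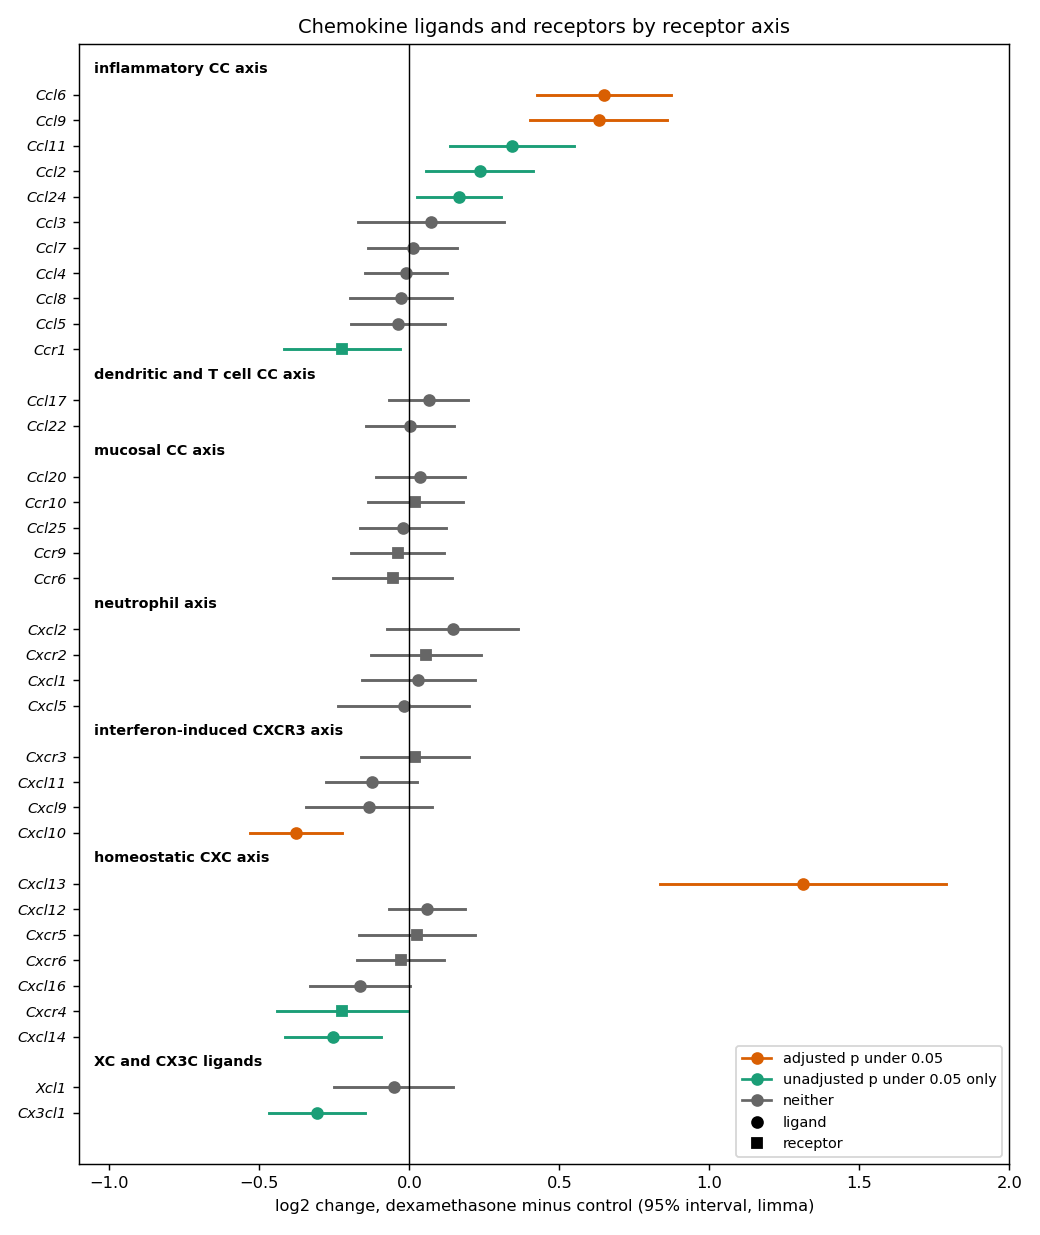
Log2 change of each of the 35 measured members, dexamethasone minus control, with the 95% interval from limma (x axis) and genes grouped by receptor axis (y axis); circles are ligands and squares receptors. Orange marks the 4 genes past an adjusted p of 0.05 (Cxcl13, Ccl6 and Ccl9 on the right, Cxcl10 on the left), green the 7 with only an unadjusted p under 0.05, whose intervals leave out 0, and grey the 24 others, whose intervals span 0.

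Many of the probe sets were dim. Of the 35 members, 27 had probe sets in the dimmest 40% of genes by mean level, including Ccl6 and Cxcl10. Brightness of a probe set does not rank transcripts, so no level is set here against that of another gene. For the 20 members with overlapping groups and an unadjusted p of 0.05 or more, changes lay between -0.14 and 0.14 and the 95% intervals reached from -0.35 to 0.36. In whole tissue, fewer cells of a type and less RNA per cell cannot be told apart.

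**Figure D2:**
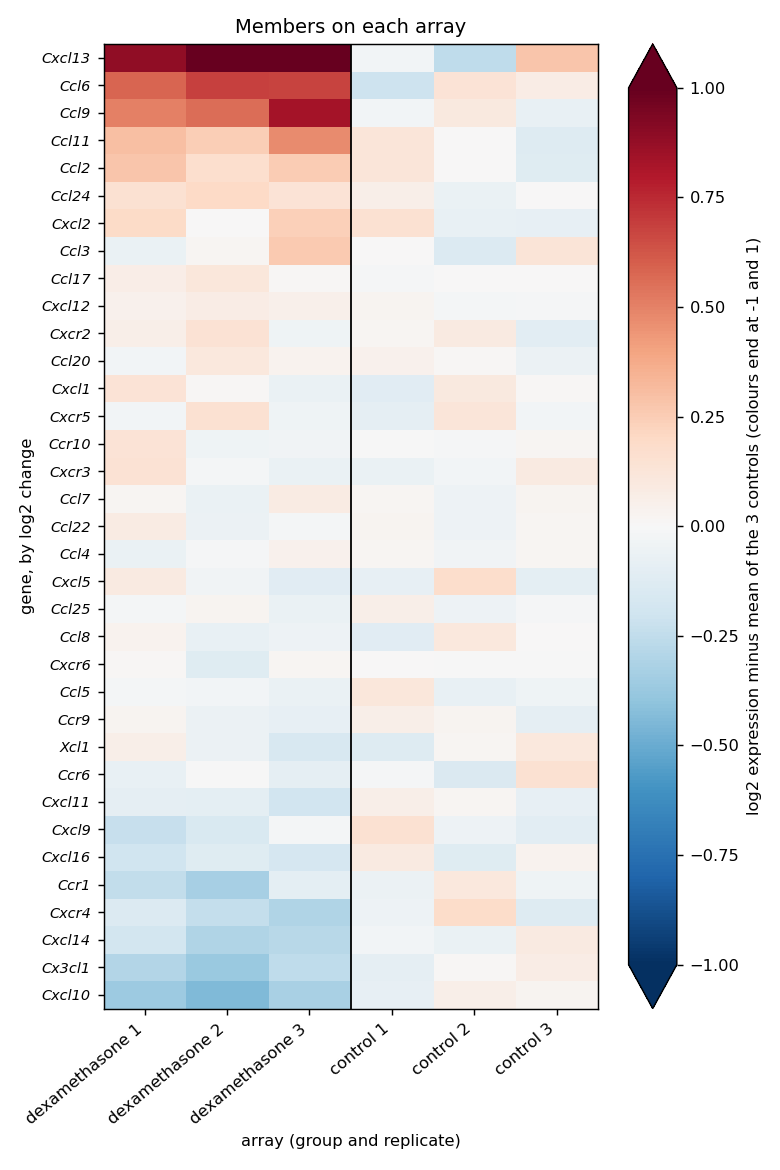
Log2 expression of the 35 members on each of the 6 arrays, shown as the difference from the mean of the 3 controls (colour), with genes ordered by their log2 change (y axis) and dexamethasone arrays left of control arrays (x axis). Cxcl13, Ccl6 and Ccl9 are red on all 3 dexamethasone arrays and Cxcl10, Cx3cl1 and Cxcl14 blue on all 3, while the rows in the middle of the order are pale on all 6 arrays.

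The 250 bases before the annotated start of the 4 genes that changed are shown to place them beside motifs of the factors that glucocorticoids and inflammation act through. The sequences are from RefSeq (GRCm38.p6), and are given for the gene's own strand from 5′ to 3′. Capitals mark matches, on either strand, to an NF-kappa B site in its 9-letter form (GGGNNTTCC), the core of an interferon-stimulated response element (GAAANNGAA), a TATA box (TATAAA) or a glucocorticoid response half-site (AGAACA).
Cxcl13 (chr5:95956689-95956938, plus strand): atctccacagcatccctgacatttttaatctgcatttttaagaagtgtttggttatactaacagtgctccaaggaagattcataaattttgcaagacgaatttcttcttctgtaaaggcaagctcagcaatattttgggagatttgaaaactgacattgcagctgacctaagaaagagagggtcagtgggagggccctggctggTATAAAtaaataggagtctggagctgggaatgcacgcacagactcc
Ccl6 (chr11:83593088-83593337, minus strand): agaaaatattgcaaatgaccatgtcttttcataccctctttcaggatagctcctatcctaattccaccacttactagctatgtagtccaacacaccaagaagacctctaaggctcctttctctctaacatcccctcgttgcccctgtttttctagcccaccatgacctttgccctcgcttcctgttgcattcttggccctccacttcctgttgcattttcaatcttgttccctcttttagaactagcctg
Ccl9 (chr11:83578637-83578886, minus strand): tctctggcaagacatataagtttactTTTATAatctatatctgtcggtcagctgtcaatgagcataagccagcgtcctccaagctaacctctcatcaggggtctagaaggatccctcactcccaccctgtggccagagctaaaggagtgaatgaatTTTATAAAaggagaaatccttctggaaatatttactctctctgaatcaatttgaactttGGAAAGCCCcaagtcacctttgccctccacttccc
Cxcl10 (chr5:92348890-92349139, minus strand): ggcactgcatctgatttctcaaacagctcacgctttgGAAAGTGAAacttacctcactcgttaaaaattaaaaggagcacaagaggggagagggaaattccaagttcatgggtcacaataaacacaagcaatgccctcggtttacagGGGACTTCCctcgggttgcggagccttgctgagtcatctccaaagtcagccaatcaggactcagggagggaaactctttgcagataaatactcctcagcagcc
The Cxcl10 window held 1 interferon element core, 213 to 205 bases before the start. It also held 1 match to the 9-letter NF-kappa B form, 103 to 95 bases before the start. Both were on the strand of the gene. Longer forms of the motifs, which gave other matches, are not marked. The Cxcl13 window held a TATA box 46 to 41 bases before the start. The Ccl9 window held an NF-kappa B match on the opposite strand 35 to 27 bases before the start. It also held TATA letters at 224 to 219 bases on the opposite strand and, as overlapping matches on both strands, at 94 to 87 bases. In the Ccl6 window none of these letters were found. Among all 32851 windows of 250 bases in the table, 4.98% held the NF-kappa B letters, 7.13% the interferon core, 12.4% the TATA letters and 16.1% the glucocorticoid half-site. Of the 24 measured members with a window in the table, 5 held the NF-kappa B letters, 4 the interferon core, 7 the TATA letters and 6 the glucocorticoid half-site, the last in none of the 4 genes that changed. The shares are counted per window and the members per gene, where a gene counted if any of its windows matched. The shares and the member counts are therefore not like for like. These matches describe the letters of the windows and were not tested for binding.

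The largest change among the members was that of Cxcl13, the ligand that draws B cells into lymphoid follicles through the receptor CXCR5. Its values were 8.84, 9.34 and 9.61 in dexamethasone replicates 1, 2 and 3, against 7.92, 7.69 and 8.23 in control replicates 1, 2 and 3. Every dexamethasone sample was above every control sample, and the samples within each group were also the most widely spread of any member. The mean was 9.26 ± 0.39 with dexamethasone and 7.95 ± 0.27 in controls (SD, n = 3 each), a rise of 2.48-fold (log2 change 1.31, SE 0.20, limma adjusted p = 0.0252). Cxcl13 was the only member with a change of 1 or more on the log2 scale. Its receptor gene Cxcr5 was dim and overlapped between groups, at 6.24, 6.41 and 6.22 with dexamethasone and 6.17, 6.38 and 6.23 in controls (log2 change 0.026, 95% interval -0.17 to 0.22). The Cxcl13 call was lost without dexamethasone replicate 2 (adjusted p = 0.129), control replicate 2 (0.0703) or control replicate 3 (0.0732), with changes between 1.14 and 1.52 over all 6 fits that leave out an array.

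**Figure D3:**
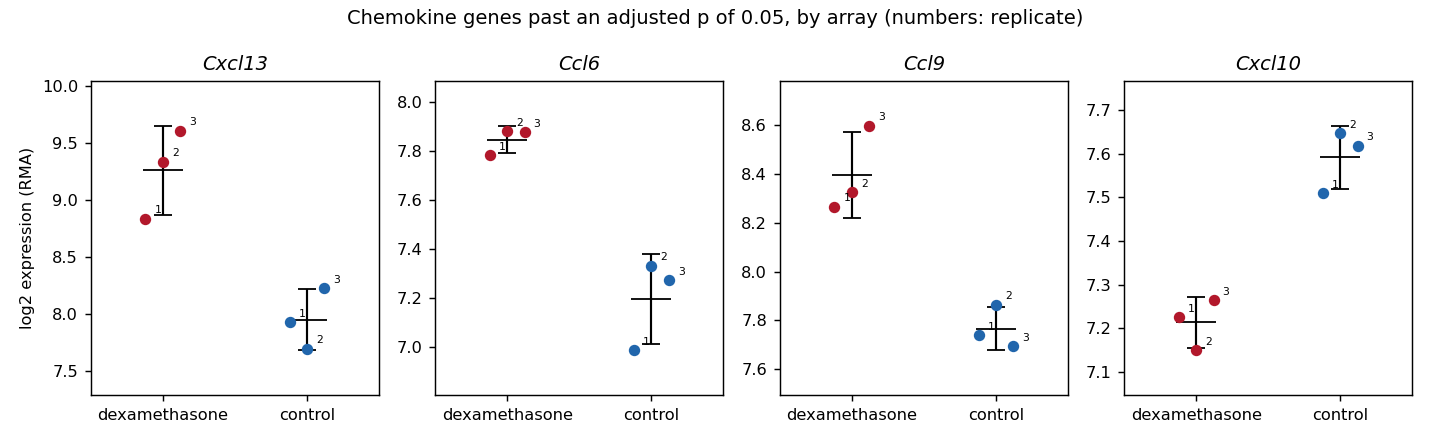
Log2 expression (y axis, RMA) of the 4 members past an adjusted p of 0.05 in the 3 dexamethasone samples (red, left) and 3 control samples (blue, right) of each panel; numbers give the replicate, and the black bars the mean and SD. In each panel the groups are apart, with dexamethasone higher for Cxcl13, Ccl6 and Ccl9 and lower for Cxcl10.

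Markers of the cells that follow or make Cxcl13 were read on the same arrays. Of 11 B and plasma cell markers, 1 fell, 0 rose and 10 did not pass, and their mean level was 6.84 to 6.86 with dexamethasone and 6.98 to 7.17 in controls. That mean includes the gene that fell, whose change was the largest of the list, while the median change of the list was -0.020. At an unadjusted p under 0.05, 3 were lower and 0 higher. The gene that fell was Igha, the immunoglobulin A heavy chain, at 7.24, 7.32 and 7.55 in the dexamethasone samples, against 8.42, 8.86 and 9.52 in the controls (log2 change -1.56, SE 0.25, limma adjusted p = 0.0263). It did not pass without dexamethasone replicates 1 or 2 or control replicate 2 (adjusted p = 0.124, 0.130 and 0.0697), or with a variance prior with trend and robust settings (0.0509). Of 5 measured markers of follicular and lymphoid stroma, 0 passed in limma, with Pdpn at 0.36 (adjusted p = 0.0860) and the follicle receptor Cr2 at -0.29 (adjusted p = 0.288), and their mean level was 8.32 to 8.48 with dexamethasone and 8.21 to 8.36 in controls. The part of these cells in the change of Cxcl13 was not tested.

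Among the ligands of monocytes and macrophages, Ccl6 and Ccl9 rose by nearly the same amount. Both are CC chemokines known from rodents that act on the receptor CCR1 and are made by macrophages and other myeloid cells. Ccl6 was at 7.78, 7.88 and 7.88 in the dexamethasone samples, against 6.99, 7.33 and 7.27 in the controls, with control replicate 1 the lowest array. It rose 1.57-fold (log2 change 0.65, SE 0.10, n = 3 each, limma adjusted p = 0.0200). Ccl9 was at 8.27, 8.33 and 8.60 in the dexamethasone samples, against 7.74, 7.86 and 7.69 in the controls, with dexamethasone replicate 3 the highest. It rose 1.55-fold (log2 change 0.63, SE 0.10, limma adjusted p = 0.0250). For neither gene did the groups overlap, and the gap between them was wider than the spread within each group.

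The Ccl6 call was lost without dexamethasone replicate 1 (adjusted p = 0.0790), dexamethasone replicate 2 (0.116) or control replicate 3 (0.0932). The Ccl9 call was lost without dexamethasone replicate 1 (adjusted p = 0.0592), dexamethasone replicate 2 (0.0988), control replicate 2 (0.0522) or control replicate 3 (0.148). Their changes stayed between 0.54 and 0.72 for Ccl6 and between 0.53 and 0.70 for Ccl9 in these fits.

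Markers of the cells that make Ccl6 and Ccl9 were read on the same arrays. Of 10 measured macrophage markers, 1 rose, 0 fell and 9 did not pass, and their mean level was 8.40 to 8.48 in the dexamethasone samples, against 8.26 to 8.36 in the controls. That mean includes the gene that rose, whose change was by far the largest of the list. The gene that rose was Cd163, a scavenger receptor of macrophages that is a known glucocorticoid target, at 8.62, 8.88 and 8.88 with dexamethasone and 7.72, 7.63 and 7.62 in controls (log2 change 1.14, SE 0.085, limma adjusted p = 0.00147). At an unadjusted p under 0.05, 3 of the 10 were higher and 2 lower, and the median change of the list was 0.15. Besides Cd163 the higher ones were Mrc1 (0.23, adjusted p = 0.291) and C1qb (0.21, adjusted p = 0.192), and the lower ones were Adgre1 (-0.22, adjusted p = 0.163) and Cd68 (-0.25, adjusted p = 0.297). Of 6 dendritic cell markers, Itgax fell (log2 change -0.42, SE 0.078, limma adjusted p = 0.0465) and 5 did not pass. At an unadjusted p under 0.05, 2 were lower, Itgax and Clec9a (-0.30, adjusted p = 0.171), and 0 higher. The median change of the dendritic list was -0.036. Itgax lost its call whichever of the 6 arrays was left out (adjusted p between 0.0635 and 0.225). The part of these cells in the changes of Ccl6 and Ccl9 was not tested.

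Ccl6 and Ccl9 are next to each other on chromosome 11 in the RefSeq gene order, in a run of 5 chemokine genes without other coding genes between them. The run is Ccl5, Ccl9, Ccl6, Ccl3 and Ccl4, and the other 3 did not pass. Ccl5, a T cell and monocyte attractant, was at 7.53, 7.53 and 7.49 with dexamethasone and 7.67, 7.48 and 7.52 in controls (log2 change -0.037). Ccl3, which acts on CCR1 among other receptors, had a change of 0.072 (95% interval -0.17 to 0.32), and Ccl4, an attractant of macrophages and T cells, had -0.011 (95% interval -0.15 to 0.13). The groups overlapped for these 3 genes. Ccl6 and Ccl9 are close paralogs, and as the probe sequences were not used here, the split of signal between them is uncertain.

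**Figure D4:**
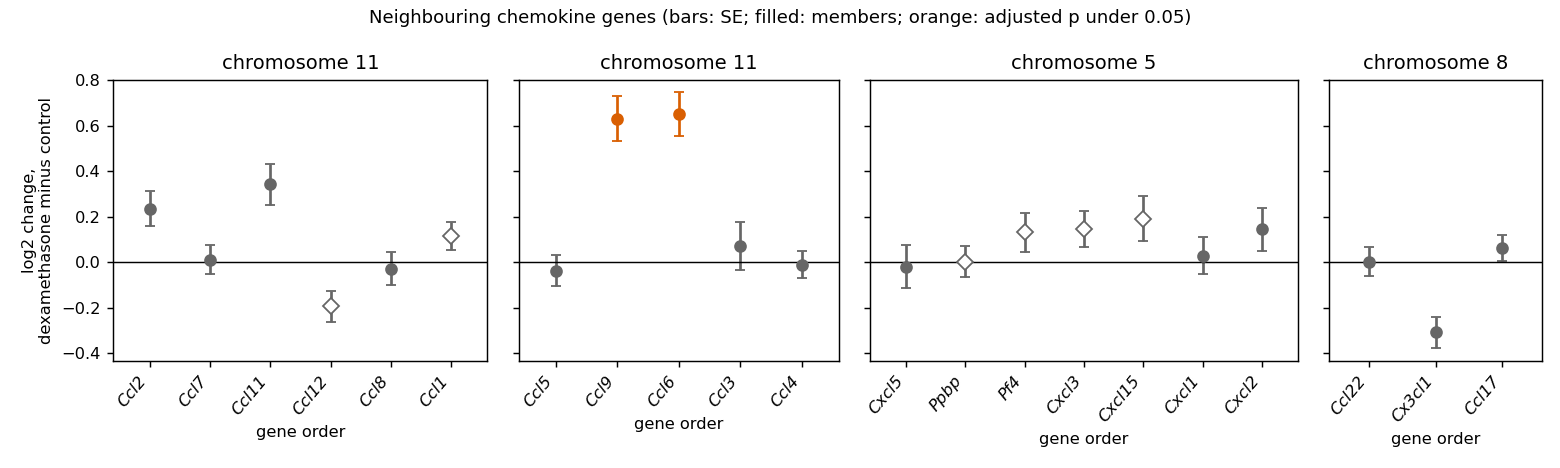
Log2 change, dexamethasone minus control, with its SE (y axis) for chemokine genes in their order along the chromosome in RefSeq (x axis) in 4 runs; filled circles are members, open diamonds other chemokine genes, and orange marks an adjusted p under 0.05. Ccl9 and Ccl6 stand apart from their neighbours Ccl5, Ccl3 and Ccl4, and Cx3cl1 lies below Ccl22 and Ccl17.

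The second run on chromosome 11 holds Ccl2, Ccl7, Ccl11, Ccl12, Ccl8 and Ccl1, and none of the 6 passed in limma. At an unadjusted p under 0.05, Ccl2 and Ccl11 were higher and Ccl12 lower. Ccl11, or eotaxin, the main attractant of eosinophils through the receptor CCR3, was at 9.61, 9.56 and 9.78 in the dexamethasone samples, against 9.43, 9.32 and 9.18 in the controls. The groups did not overlap (log2 change 0.34, SE 0.089, adjusted p = 0.133). Ccl2, the main attractant of monocytes through the receptor CCR2, was at 7.41, 7.31 and 7.39 with dexamethasone and 7.25, 7.14 and 7.01 in controls, again without overlap (log2 change 0.23, SE 0.077, adjusted p = 0.240). Ccl7, which draws in monocytes, and Ccl8 had changes of 0.011 and -0.029 with overlapping groups.

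Ccl24, a further eotaxin, was at 7.10, 7.15 and 7.09 in the dexamethasone samples, against 7.01, 6.89 and 6.96 in the controls (log2 change 0.16, SE 0.060, adjusted p = 0.293), and every dexamethasone value was above every control value. Ccr3, the eotaxin receptor, which is not among the 35 members, had a change of -0.14 (adjusted p = 0.376). Ccr1, the receptor for CCL3, CCL6 and CCL9, was at 6.32, 6.23 and 6.47 in the dexamethasone samples, against 6.50, 6.67 and 6.52 in the controls. Its groups were separated by a narrow gap between dexamethasone replicate 3 and control replicate 1 (log2 change -0.22, SE 0.083, adjusted p = 0.294). In this inflammatory CC group of 11 genes, 2 rose, 0 fell and 9 did not pass, while 1.84% of all genes passed.

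**Figure D5:**
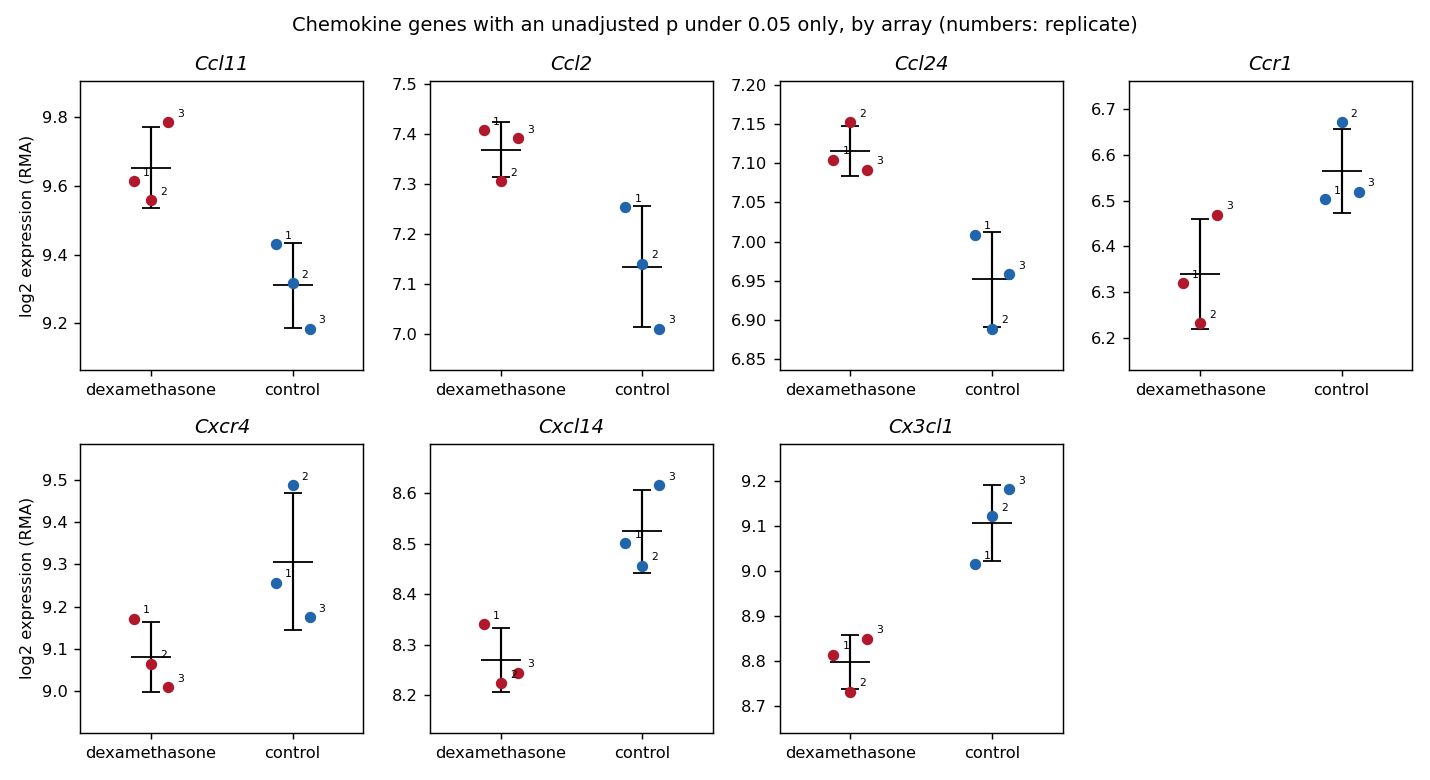
Log2 expression (y axis, RMA) of the 7 members with an unadjusted p under 0.05 that did not pass after adjustment, in the 3 dexamethasone samples (red, left) and 3 control samples (blue, right) of each panel; numbers give the replicate, and the black bars the mean and SD. The groups do not overlap in any of the 7 panels, with dexamethasone higher for Ccl11, Ccl2 and Ccl24 and lower for Ccr1, Cxcr4, Cxcl14 and Cx3cl1.

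The ligands of CXCR3, which are induced by interferon and draw in activated T cells and NK cells, contained the only member that fell. Cxcl10 was at 7.23, 7.15 and 7.26 in the dexamethasone samples, against 7.51, 7.65 and 7.62 in the controls. All 3 dexamethasone samples were below all controls, and the mean was 7.21 ± 0.058 with dexamethasone and 7.59 ± 0.072 in controls (SD, n = 3 each). The fall was 1.30-fold (log2 change -0.38, SE 0.066, limma adjusted p = 0.0376). The call was lost without dexamethasone replicate 1 (adjusted p = 0.135), dexamethasone replicate 2 (0.187), control replicate 2 (0.113) or control replicate 3 (0.189), with changes between -0.42 and -0.35 over the 6 fits that leave out an array.

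The other CXCR3 ligands did not pass. Cxcl11 was at 6.81, 6.81 and 6.71 with dexamethasone and 6.97, 6.92 and 6.82 in controls, without overlap (log2 change -0.13, 95% interval -0.28 to 0.027, adjusted p = 0.484). Cxcl9 was at 6.90, 6.98 and 7.11 with dexamethasone and 7.29, 7.08 and 7.02 in controls, and the groups overlapped (log2 change -0.14, 95% interval -0.35 to 0.075). The receptor gene Cxcr3 was at 7.65, 7.49 and 7.44 with dexamethasone and 7.44, 7.48 and 7.60 in controls (log2 change 0.019, 95% interval -0.16 to 0.20). The intervals of these 3 genes all included 0.

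Of the other homeostatic CXC ligands none passed, and their directions were mixed. Cxcl14, a ligand made constitutively by epithelia, was at 8.34, 8.22 and 8.24 in the dexamethasone samples, against 8.50, 8.46 and 8.62 in the controls (log2 change -0.25, SE 0.069, adjusted p = 0.145). Cxcl16, a membrane-bound ligand that is also a scavenger receptor, was at 8.73, 8.80 and 8.76 with dexamethasone and 9.02, 8.81 and 8.96 in controls (log2 change -0.17, SE 0.072, adjusted p = 0.382). In both, dexamethasone values were below all control values, though dexamethasone replicate 2 was only just below control replicate 2 for Cxcl16. Cxcl12, the stromal ligand that retains leukocytes and progenitors, was at 8.63, 8.66 and 8.64 with dexamethasone and 8.62, 8.57 and 8.58 in controls, without overlap but by a change of 0.057 (95% interval -0.070 to 0.18).

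The receptor of CXCL12, Cxcr4, was at 9.17, 9.07 and 9.01 in the dexamethasone samples, against 9.26, 9.49 and 9.18 in the controls. Control replicate 2 was the highest array, and dexamethasone replicate 1 lay just below control replicate 3 (log2 change -0.22, SE 0.093, adjusted p = 0.362). The receptor of CXCL16, Cxcr6, found on resident T cells, was at 6.96, 6.82 and 6.96 with dexamethasone and 6.95, 6.94 and 6.94 in controls (log2 change -0.030, 95% interval -0.17 to 0.12). Its values overlapped between the groups.

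Cx3cl1, or fractalkine, a membrane-tethered ligand of CX3CR1 on monocytes and macrophages, was at 8.81, 8.73 and 8.85 in the dexamethasone samples, against 9.02, 9.12 and 9.18 in the controls. The groups were well apart, but the change did not pass after adjustment over all genes (log2 change -0.31, SE 0.068, adjusted p = 0.0858). On chromosome 8 it lies between Ccl22 and Ccl17, ligands of CCR4 that draw in regulatory and helper T cells. Ccl17 was at 7.02, 7.07 and 6.97 with dexamethasone and 6.95, 6.96 and 6.96 in controls, a difference of 0.064 (95% interval -0.068 to 0.20). The controls lay within a narrow range, and the groups did not overlap. Ccl22 overlapped, at 7.27, 7.13 and 7.17 with dexamethasone and 7.22, 7.14 and 7.21 in controls (log2 change 0.0015). Xcl1, the ligand of cross-presenting dendritic cells through XCR1, had a change of -0.052 (95% interval -0.25 to 0.15).

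None of the 5 measured genes of mucosal homing passed in limma, and 0 had an unadjusted p under 0.05. Ccl20, which draws in cells bearing CCR6, was at 7.22, 7.35 and 7.28 with dexamethasone and 7.29, 7.26 and 7.19 in controls (log2 change 0.037). Ccr6 was at 6.81, 6.89 and 6.80 with dexamethasone and 6.88, 6.74 and 7.04 in controls (log2 change -0.055). The groups overlapped for both. Ccl25, the ligand that homes lymphocytes to the small intestine, had a change of -0.021 (95% interval -0.16 to 0.12). Its receptor Ccr9 was at 6.78, 6.69 and 6.68 with dexamethasone and 6.82, 6.78 and 6.67 in controls. Ccr10, the CCL28 receptor carried by plasma cells that make immunoglobulin A, was at 7.57, 7.39 and 7.40 with dexamethasone and 7.43, 7.42 and 7.45 in controls (log2 change 0.020, 95% interval -0.14 to 0.18). Neither receptor's groups were apart.

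Nor did any of the 4 genes of neutrophil recruitment pass in limma, with 0 at an unadjusted p under 0.05. Cxcl1, the ligand of CXCR2 induced early in inflammation, was at 7.61, 7.48 and 7.40 with dexamethasone and 7.36, 7.57 and 7.48 in controls (log2 change 0.029, 95% interval -0.16 to 0.22). Cxcl2 and Cxcl5, which act on the same receptor, had changes of 0.14 and -0.020. The receptor gene Cxcr2 was at 6.09, 6.17 and 5.98 with dexamethasone and 6.04, 6.11 and 5.92 in controls. These 4 probe sets were dim, and the groups overlapped in all 4. The 9 measured neutrophil markers averaged 6.65 to 6.70 in the dexamethasone samples, against 6.64 to 6.68 in the controls, and 0 of the 9 passed in limma. At an unadjusted p under 0.05, 1 was higher, S100a8 (log2 change 0.20, limma adjusted p = 0.249).

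Outside the members, 22 further genes of chemokine ligands and of classical and atypical receptors were measured, and 0 passed in limma. The unadjusted p was under 0.05 for 5 of the 22, 2 with higher and 3 with lower values, beside 13.1% of all genes. Cxcl17, a mucosal ligand, was at 10.45, 10.07 and 10.51 in the dexamethasone samples, against 10.64, 10.80 and 10.84 in the controls (log2 change -0.42, adjusted p = 0.176). Cxcr1, a receptor of neutrophils, was at 8.19, 8.02 and 8.00 with dexamethasone and 7.67, 7.78 and 7.53 in controls (log2 change 0.41, adjusted p = 0.0709). Both had groups that did not overlap. Ccl12, a monocyte attractant of mice, had a change of -0.19 (adjusted p = 0.260), Cx3cr1, the fractalkine receptor, -0.15 (adjusted p = 0.452), and the atypical receptor Ackr1, which carries chemokines across venules, 0.22 (adjusted p = 0.161).

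Of 15 measured genes of chemokine receptor signalling and ligand trimming, 1 fell, 0 rose and 14 did not pass. The gene that fell was Dpp4, a surface peptidase that trims the N terminus of CXCL10 and other chemokines. It was at 7.02, 7.08 and 6.95 in the dexamethasone samples, against 7.37, 7.53 and 7.57 in the controls, without overlap (log2 change -0.47, SE 0.074, limma adjusted p = 0.0266). Dpp4 did not pass without dexamethasone replicates 1 or 2 or control replicates 2 or 3 (adjusted p = 0.115, 0.0988, 0.0841 and 0.149). Elmo1 and Dock2, which together activate the GTPase Rac downstream of these receptors, had changes of -0.41 and -0.28 (adjusted p = 0.130 and 0.197), and Elmo1 passed without control replicate 1 (0.0216). Of 8 measured genes of interferon gamma signalling, which induces Cxcl10, 0 passed in limma and 2 were lower at an unadjusted p under 0.05, Jak2 with -0.24 and Ifngr2 with -0.30. Of 11 lymphotoxin, TNF and follicle inducer genes, the pathway that induces Cxcl13 in lymphoid stroma, 0 passed in limma and 0 had an unadjusted p under 0.05, with a median change of 0.0076.

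Of 14 T and NK cell markers, 0 passed in limma (unadjusted p under 0.05 in 2, both lower), and their mean level was 6.83 to 6.93 with dexamethasone and 6.89 to 7.00 in controls. The 2 were Il2rb (log2 change -0.24, limma adjusted p = 0.115) and Cd3g (-0.49, adjusted p = 0.255), both without overlap. Of 13 eosinophil and mast cell markers, 0 passed in limma (unadjusted p under 0.05 in 2, both lower), and the levels were 7.20 to 7.39 with dexamethasone and 7.11 to 7.43 in controls. These 2 were Mcpt1 (log2 change -0.92, limma adjusted p = 0.0868) and Ccr3 (-0.14, adjusted p = 0.376), both without overlap. Mcpt1 passed without control replicate 1 (adjusted p = 0.0204). Among 8 endothelial markers Lyve1, a receptor of lymphatic vessels and some macrophages, rose (log2 change 1.22, SE 0.15, adjusted p = 0.0105), though not without dexamethasone replicate 1 or control replicate 3 (adjusted p = 0.0539 and 0.0605). Among 7 fibroblast markers Pdgfra rose (log2 change 0.57, SE 0.062, adjusted p = 0.00553). The other members of both lists did not pass. At an unadjusted p under 0.05, 3 endothelial markers were higher and 0 lower. In the fibroblast list 3 were higher and 1 lower, Lum (log2 change -0.53, limma adjusted p = 0.179), without overlap. The part of these cells in the chemokine changes was not tested. With the mean of the squamous markers as a covariate, Cxcl13, Ccl6, Ccl9 and Cxcl10 all kept their direction and passed (limma adjusted p = 0.00392, 0.0257, 0.0203 and 0.0469). In that fit 8 of the 17 squamous markers also passed, against 1 in the reported fit. The part of squamous cells in the chemokine changes was not tested.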

How the data were processed

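Gene expression was measured on 6 Affymetrix arrays, 3 from corpus of mice given dexamethasone and 3 from untreated controls. The authors deposited 1 table of log2 values for 20985 probe sets. Per the submitters' processing notes, RMA, limma and R 2.9 were involved, with no role given. The sources used here give neither the chip definition nor any filter. Arrays have no read depth, and their number limits the precision. Probe sets were named through the platform annotation: 19921 had 1 symbol and 1064 had none and were left out. For a gene with several probe sets the brightest was used, giving 19919 genes.

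The comparison was fitted to all 19919 genes (lmFit and eBayes of limma 3.58.1, R 4.3.3), with Benjamini-Hochberg adjustment over all of them and a threshold of 0.05. With 3 samples a group, exact permutation has a smallest p of 0.1 and was not used. Values were given in every sample for members past the adjusted or unadjusted threshold of 0.05, members whose groups did not overlap, and the receptor and brightest ligand of each axis. From the other lists described here, genes past the threshold were named, or up to 2 of smallest p. A few further genes were chosen after their values were seen. They were Ccl5, Cxcl9, Cd68, Adgre1, Mrc1, C1qb, Cx3cr1, Elmo1, Dock2, Clec9a, Lum, Krt5, Krt14 and genes of the corpus and glucocorticoid checks. The members, the gene lists and the motifs were chosen with earlier results of these data known. Longer forms of the NF-kappa B, interferon and glucocorticoid motifs were searched as well, gave other matches and are not reported. Alternatives were a replicate block, other scalings, a filter on dim genes, another probe set per gene, another variance prior, array weights, all probe sets, a squamous covariate and leaving out each array. On simulated data for this comparison over 19919 genes, limma recovered 84% of 50 genes changed by 0.5 (log2) and 100% of 50 at each of 1, 1.5 and 2, and called 14 unchanged genes. The simulated noise was normal and independent between genes and arrays, without differences that many genes share, such as the squamous level. These shares therefore do not measure recovery on the real arrays. Promoter windows and gene order came from RefSeq (GRCm38.p6), and the sources used here name no build for the array design.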

Additional observations from a re-analysis of the deposited data

How the results depend on the processing

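No direction among the 15 members with separate groups or a low p reversed under any alternative that gave them a value. All 15 had groups that did not overlap, so leaving out or weighting arrays could not reverse their direction. The replicate block, the dim filter, the probe set choices and the other variance prior left their changes the same. Only the other scalings and the squamous covariate could have reversed a direction. As reported, 367 genes and 4 members were called, with a median member change of 0.0015. With the replicate number as a block, 220 genes and 2 members (Ccl6 and Cxcl13) were called, and Ccl9 (adjusted p = 0.0651), Cxcl10 (0.107), Dpp4 (0.0730) and Itgax (0.103) were not. Igha did not pass with the trend and robust prior (0.0509). Same-numbered samples deviated with correlations of -0.28, 0.35 and 0.23, so the numbers were not taken as pairs. Without the dimmest 40% of genes, 2 members were called among 8 left, and the median was -0.054. Quantile normalization gave a median of -0.024. Array weights gave 1776 genes and 8 members, adding Ccl2, Ccl11, Cx3cl1 and Cxcl14. Leaving out 1 array gave 88 to 543 genes, 0 to 4 members and medians of -0.038 to 0.0088. Members called were 1 without dexamethasone replicate 1 (Cxcl13), 0 without dexamethasone replicate 2, 1 without control replicate 2 (Ccl6), 0 without control replicate 3, and 4 without dexamethasone replicate 3 or control replicate 1. The cause of these differences was not tested beyond the fewer genes or arrays in the fit. The median of all genes stayed between -0.015 and 0.0055. With 3 arrays per group and dim probe sets, small changes may be missed.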
